A study of Homo sapiens with 6 samples.

Results

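The DNA mismatch repair genes MSH6, MSH3, PMS2, PMS1, MLH3 and EXO1 were examined in HCT116SCs, the CD44+CD326+ cells sorted with magnetic beads from the colorectal cancer line HCT116 and grown as tumor spheres. Members were taken by gene name from the deposited expression table, and all 6 were found among its 58735 genes. The 6 RNA-seq libraries came from cells given negative control siRNA (NC, n = 3) or PSCA siRNA (siPSCA, n = 3) and harvested 48 h after liposomal transfection. Both groups therefore carried an siRNA and the transfection reagent, and the labels give the genotype of the NC cells as WT and of the siPSCA cells as PSCA knockdown. The titles of siPSCA 2 and siPSCA 3 name HCT117 and HCT118, whereas their other labels name HCT116. The cells come from a single line, and the sources used here do not say which of the study's PSCA siRNAs was sequenced or whether the 3 libraries of a group came from separate cultures, so that p-values measure the spread between these libraries.

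Mismatch repair corrects wrongly paired bases and small loops left by DNA replication. MutS-type dimers recognise the lesion, MutL-type dimers nick or signal, an exonuclease removes the faulty strand, and the replication machinery fills and seals the gap. MSH6 serves the dimer that reads base mismatches and MSH3 the dimer that reads larger loops. PMS2, PMS1 and MLH3 are the alternative MutL subunits, which join the same partner: PMS2 carries the main repair endonuclease, MLH3 carries an endonuclease better known from meiotic crossover, and the part of PMS1 in repair is little defined. EXO1 is the exonuclease. HCT116 is known as a mismatch repair deficient line with unstable microsatellites.

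Reads on genes, recovered from the FPKM values, ranged from 16145977 to 16884838 per library in NC and from 16099716 to 17302219 in siPSCA. PSCA itself had only 4 to 15 reads per library. It averaged 0.340 ± 0.185 FPKM across the NC libraries and 0.269 ± 0.0448 across the siPSCA libraries (SD, n = 3 each). Its mean was 20.9% lower in siPSCA, and the groups overlapped. The difference of log2(FPKM + 1) was -0.07, on a scale that understates changes at levels this low. These few reads leave the knockdown unchecked. The log2 fold changes of all tested genes followed GC content (Spearman correlation 0.664 across genes, which are not independent replicates). NC 3 was the NC library that stood apart, at a root mean square distance of 0.410 from NC 1 and 0.390 from NC 2 on the log2 scale. NC 1 and NC 2 were 0.268 apart. The difference of NC 3 from the mean of NC 1 and NC 2 also followed GC content (Spearman correlation -0.561 across genes). A GC trend was thus present within the NC group too. Among the markers of the labelled cell type, EPCAM (CD326) had a mean FPKM of 107 in NC and CD44 of 82.6, whereas CDX1 was listed at 0 and VIL1 had at most 5 reads in a library. CD44 fell to 60.7 in siPSCA (log2 fold change -0.44) and CDH1, an epithelial cadherin, fell by 0.60 on the log2 scale, whereas CDX2, an intestinal transcription factor, rose by 0.70. These 3 also passed when corrected for GC content and length (-0.29, -0.60 and 0.39), and their part in the results below was not tested. KRT8 rose by 0.22 and passed, but was -0.02 and did not pass when corrected. KRT18 passed only when corrected (-0.44), and EPCAM and KRT20 passed in neither fit. Of 10 such markers 7 passed the FPKM minimum, against 1 of 6 fibroblast markers (COL1A1), 0 of 6 leukocyte markers and 0 of 3 endothelial markers. Of the 7 epithelial markers tested, 2 were higher and 2 lower in siPSCA (57.1% called, beside 50.7% of all tested genes). When corrected, 1 was higher and 3 lower (57.1%, beside 39.6% of all tested genes). The summed FPKM of the fibroblast markers was 3.49 to 5.74 in NC and 6.17 to 6.74 in siPSCA, mostly COL1A1, which did not pass (log2 fold change 0.35, adjusted p = 0.111 from limma) and was -0.06 when corrected for GC content and length.

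The promoters of the MutL subunits are shown first. Without a correction for GC content and length, the log2 fold changes of those genes were the largest in size of the 6. With that correction MSH6 (0.33) and EXO1 (0.28) differed more than PMS2 (0.23) and PMS1 (-0.16). Each window holds 250 bases before and 50 after the transcript start in RefSeq (GRCh38.p14), read along the gene's own strand. These starts lie inside the gene spans of the deposited table, which follow another annotation. Capitals mark matches, on either strand, to an E2F-type motif (TTTCCCGC, TTTGGCGC, TTTCGCGC or TTTGCCGC), to the cAMP response element TGACGTCA, or to CCAAT. The MLH3 window lies on the minus strand at chr14:75051418-75051717, the PMS1 window on the plus strand at chr2:189784200-189784499 and the PMS2 window on the minus strand at chr7:6009057-6009356.
MLH3: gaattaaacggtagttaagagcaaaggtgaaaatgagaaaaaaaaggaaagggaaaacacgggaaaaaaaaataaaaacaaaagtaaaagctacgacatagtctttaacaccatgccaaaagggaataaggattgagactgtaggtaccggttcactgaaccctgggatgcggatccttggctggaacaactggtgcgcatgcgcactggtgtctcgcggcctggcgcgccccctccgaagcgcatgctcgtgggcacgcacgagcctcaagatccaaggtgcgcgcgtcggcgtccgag
PMS1: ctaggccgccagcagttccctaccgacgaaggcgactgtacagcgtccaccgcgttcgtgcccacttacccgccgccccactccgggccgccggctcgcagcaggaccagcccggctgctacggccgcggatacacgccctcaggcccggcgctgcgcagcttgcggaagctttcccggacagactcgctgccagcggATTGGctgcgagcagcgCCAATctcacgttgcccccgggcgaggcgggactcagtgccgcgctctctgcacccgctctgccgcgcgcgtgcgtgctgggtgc
PMS2: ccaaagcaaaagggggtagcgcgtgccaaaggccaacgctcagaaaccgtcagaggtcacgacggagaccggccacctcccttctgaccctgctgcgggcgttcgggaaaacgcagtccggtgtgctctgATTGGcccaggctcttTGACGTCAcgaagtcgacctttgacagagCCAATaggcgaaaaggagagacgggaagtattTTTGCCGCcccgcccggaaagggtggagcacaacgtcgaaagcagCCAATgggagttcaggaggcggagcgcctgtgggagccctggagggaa
The MLH3 window held no match to any of these motifs and had a GC content of 51.0%, the lowest of the 6 and higher than 32.8% of the 34796 windows of this length. The PMS1 window (72.0% GC) held 2 CCAAT matches, and the PMS2 window (60.7% GC) held 3 CCAAT matches, the cAMP response element and 1 E2F-type match. An E2F-type match was present in 3.31% of all windows, the cAMP response element in 1.84% and CCAAT in 34.6%.

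The remaining members each carried an E2F-type match, shown in capitals with 16 bases on either side. EXO1 is given at chr1:241848192-241848231, MSH6 at chr2:47783132-47783171 and MSH3 at chr5:80654529-80654568, all on the plus strand.
EXO1: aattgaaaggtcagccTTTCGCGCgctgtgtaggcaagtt
MSH6: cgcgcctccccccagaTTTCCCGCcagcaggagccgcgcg
MSH3: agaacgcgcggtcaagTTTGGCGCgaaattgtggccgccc
The MSH3 window held a second E2F-type match, on the other strand, that overlaps the one shown. The windows of EXO1 and PMS2 were those with the cAMP response element, and the windows of PMS1 and MLH3 held no E2F-type letters. The motifs were chosen after the values had been seen, and a match describes letters, not a bound factor.

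All 6 members were expressed, at moderate to low levels. FPKM divides reads by the length of all annotated exons of a gene, whether or not these cells use them. The order of levels between genes therefore depends on these lengths, which were 10993 bases for MSH6 and 5454 for PMS1. In NC 1 MSH6 had 1531 reads and PMS1 had 886. In NC the order of mean FPKM was PMS1 (9.49), MSH6 (8.89), EXO1 (8.45), PMS2 (6.54), MLH3 (4.26) and MSH3 (1.36). PMS1, MSH6, EXO1 and PMS2 overlapped with their neighbours in this order, whereas MLH3 lay below PMS2 and MSH3 below MLH3 in each library without overlap. In siPSCA the order was EXO1 (9.18), MSH6 (8.87), PMS2 (7.71), PMS1 (6.73), MLH3 (2.31) and MSH3 (1.17), and only EXO1 and MSH6 overlapped. PMS1 thus led the order of FPKM in NC and stood behind EXO1, MSH6 and PMS2 in siPSCA. Among the 13796 genes tested, the percentile of the mean level in NC was 64.1 for MSH6 and 8.03 for MSH3, and that of MLH3 was 40.5 in NC and 23.0 in siPSCA.

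To compare the groups, limma was fitted to log2(FPKM + 1) of the 13796 genes whose FPKM averaged 1 or more, and p-values were adjusted over all of them by the method of Benjamini and Hochberg. MLH3 and PMS1 fell and no member rose, so that 2 of 6 passed an adjusted p of 0.05, where 50.7% of all tested genes passed, 26.6% higher and 24.2% lower. The median log2 fold change was -0.06 over the members and 0.01 over all tested genes. Both comparisons with the table turned after a correction for GC content and gene length described below, where 3 of 6 members and 39.6% of the table passed, and the medians were 0.15 and 0.02. The ranges of siPSCA and NC did not overlap for 3 of 6 members, against 64.5% of all tested genes. With 3 libraries against 3, an exact permutation test of a single gene cannot give a p below 0.1.

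MLH3 (ENSG00000119684), on the minus strand of chromosome 14 from 75013764 to 75051532 in GRCh38, had an FPKM of 3.89, 4.01 and 4.88 in NC 1, NC 2 and NC 3 and of 2.21, 2.26 and 2.45 in siPSCA 1, siPSCA 2 and siPSCA 3. Every siPSCA library lay below every NC library. Its mean fell by 45.8%, from 4.26 ± 0.542 to 2.31 ± 0.125 (SD, n = 3 each), and the difference on the log2 scale was -0.66 (standard error, SE, 0.09, 95% confidence interval -0.88 to -0.45, adjusted p = 0.00251 from limma). MLH3 had 313 to 703 reads per library, and the exact permutation test gave p = 0.1, the smallest it can give. In bulk RNA, fewer cells that express a gene and less of its RNA per cell cannot be told apart.
MLH3 was the member whose call held under each of the 17 alternatives run, with log2 fold changes from -0.85 to -0.34 and adjusted p-values from 0.000533 to 0.0160. When the dependence on GC content and gene length had been taken out of every library (the GC-corrected scale), its log2 fold change was -0.39 (adjusted p = 0.00458 from limma), still past the threshold. On the GC-corrected scale 21.2% of all tested genes passed as higher and 18.4% as lower, and 3 of 6 members passed, MLH3 lower and MSH6 and EXO1 higher.

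PMS1 (ENSG00000064933), a plus-strand gene of chromosome 2 from 189784085 to 189877629, had an FPKM of 9.67, 8.81 and 10.0 in the NC libraries and of 6.24, 7.34 and 6.60 in the siPSCA libraries. Again no siPSCA library reached the lowest NC library. The mean fell by 29.2%, from 9.49 ± 0.615 to 6.73 ± 0.557 (SD, n = 3 each), which was -0.44 on the log2 scale (SE 0.08, 95% confidence interval -0.63 to -0.26, adjusted p = 0.00520 from limma; exact permutation p = 0.1).
Its longest transcript is the poorest in GC of the 6 (39.9%, where the median of tested genes is 48.1%). On the GC-corrected scale the log2 fold change was -0.16 and no longer past the threshold (adjusted p = 0.1004 from limma). Under a rule of an unadjusted p under 0.05 and an absolute log2 fold change over 0.5, which 24.9% of all tested genes met, MLH3 alone of the 6 was called.

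PMS2 (ENSG00000122512), on the minus strand of chromosome 7 from 5973239 to 6009125, had an FPKM of 5.67, 6.39 and 7.57 in NC and of 7.82, 7.69 and 7.61 in siPSCA. All siPSCA values lay above the NC values, with NC 3 just under the lowest siPSCA library. The means were 6.54 ± 0.957 and 7.71 ± 0.106 (SD, n = 3 each), and the log2 fold change of 0.22 did not pass (SE 0.10, 95% confidence interval -0.02 to 0.45, adjusted p = 0.103 from limma; exact permutation p = 0.1). Without NC 3 it was 0.31 and passed (adjusted p = 0.00658 from limma).

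The shares of the 3 MutL subunits in their summed FPKM therefore differed between the groups. These are RNA values, and protein levels of the subunits were not measured here. Of the summed FPKM of PMS2, PMS1 and MLH3, PMS2 made up 29.5%, 33.3% and 33.7% in NC and 48.1%, 44.5% and 45.7% in siPSCA. PMS1 made up 46.9% ± 3.00 in NC and 40.1% ± 2.09 in siPSCA, and MLH3 20.9% ± 0.764 and 13.8% ± 0.824 (SD, n = 3 each). The groups did not overlap for any of these shares, which were computed after the values had been seen (exact permutation p = 0.1 for each, the smallest possible). Beside this, the groups did not overlap in FPKM for 64.5% of all tested genes.
The ratio of PMS2 to PMS1 was 0.586, 0.725 and 0.756 in NC and 1.25, 1.05 and 1.15 in siPSCA, without overlap. The value of 1 between the groups depends on the exon lengths and on how reads were divided between PMS2 and its copy PMS2CL (described next). With the reads of both added together the ratio was 1.11 to 1.35 in NC and 1.68 to 1.96 in siPSCA. It was then above 1 in all 6 libraries and still without overlap. The ratio of PMS2 to MLH3 was 1.53 ± 0.0685 in NC and 3.35 ± 0.218 in siPSCA (SD, n = 3 each). These are 2 of 6 ratios between genes, all chosen after the values had been seen, and each of the 2 had an exact permutation p of 0.1 (0.12 when adjusted over the 6 ratios). The summed FPKM of the 3 subunits was 20.3 ± 1.87 in NC and 16.7 ± 0.509 in siPSCA, also without overlap. With PMS2CL added, the ratio of PMS2 to MLH3 was 2.76 to 2.89 in NC and 4.76 to 5.53 in siPSCA. The GC-corrected log2 fold changes were 0.23 for PMS2, -0.16 for PMS1 and -0.39 for MLH3. Of these only MLH3 passed (adjusted p = 0.0588, 0.1004 and 0.00458 from limma, in that order).

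PMS2 has near-identical copies that can take its reads, so its values are uncertain. The copy with most reads, PMS2CL, lies on the plus strand of the same chromosome and had 290 to 401 reads per library, against 375 to 546 for PMS2. Its FPKM was 5.12, 5.26 and 6.001 in NC and 4.46, 4.69 and 4.10 in siPSCA, lower in every siPSCA library (log2 fold change -0.25, SE 0.08, adjusted p = 0.0345 from limma). That call was lost under 8 of 17 alternatives, without NC 2 and without each single siPSCA library among them.
PMS2 and PMS2CL thus differed in opposite directions, and PMS2 held 52.9% to 56.1% of their summed reads in NC and 62.5% to 65.3% in siPSCA. With the reads of both added together, an alternative chosen after seeing the data, there were 709, 793 and 914 reads in NC and 814, 861 and 836 in siPSCA, and the log2 fold change was 0.02 (adjusted p = 0.855 from limma). Of the other copies PMS2P1 (log2 fold change -0.05) and PMS2P3 (-0.27) were tested and did not pass, and the other 8 averaged under 1 FPKM, with at most 30 reads in a library. How the counting treated reads that fit several copies is not given in the sources used here.

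The MutS subunits showed no difference past the threshold. MSH6 (ENSG00000116062), a plus-strand gene of chromosome 2 from 47695530 to 47810101, had an FPKM of 8.29, 8.10 and 10.3 in NC and of 8.72, 9.10 and 8.81 in siPSCA, with the siPSCA values inside the range of NC. The log2 fold change was 0.00 (SE 0.09, 95% confidence interval -0.22 to 0.23, adjusted p = 0.974 from limma). On the GC-corrected scale it was 0.33 and passed (adjusted p = 0.00871 from limma).
FBXO11, a ubiquitin ligase subunit encoded on the other strand, covers 16.2% of the exonic bases of MSH6 and fell from 10.9 ± 1.48 to 6.59 ± 0.371 (SD, n = 3 each; log2 fold change -0.65, adjusted p = 0.00341 from limma; -0.34 on the GC-corrected scale, also past the threshold). The sources used here do not state whether strand was used in counting. If it was not, reads in the shared exons cannot be assigned to either gene. RPL36AP15, a pseudogene in an intron of MSH6, had 1 to 16 reads per library.

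MSH3 (ENSG00000113318), a plus-strand gene of chromosome 5 from 80654648 to 80876460, was the lowest member in every library, with an FPKM of 1.39, 1.11 and 1.59 in NC and of 1.24, 1.27 and 1.01 in siPSCA. The groups overlapped. Its 87 to 129 reads per library left the log2 fold change of -0.12 with a 95% confidence interval of -0.40 to 0.16 (adjusted p = 0.428 from limma), and a difference within this interval was not detectable at this depth and replicate spread. The FPKM of MSH6 exceeded that of MSH3 by a ratio of 6.58 ± 0.673 in NC and 7.63 ± 0.920 in siPSCA (SD, n = 3 each). The exact permutation test gave p = 0.3, and the size of the ratio depends on the exon lengths used.

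EXO1 (ENSG00000174371), a plus-strand gene of chromosome 1 from 241847967 to 241895148, had an FPKM of 7.01, 8.54 and 9.80 in NC and of 9.09, 8.98 and 9.47 in siPSCA. The siPSCA libraries lay close together within the wide range of NC. The log2 fold change was 0.12 (SE 0.11, 95% confidence interval -0.15 to 0.38, adjusted p = 0.403 from limma). It was 0.00 when NC 1 was left out. It was 0.28 and passed when GC-corrected (adjusted p = 0.0398 from limma).
NC 3 was the highest NC library for each of the 6 members. Without it the log2 fold changes of MSH6, MSH3 and EXO1 were 0.10, -0.05 and 0.22, none past the threshold, and those of PMS1 and MLH3 were -0.41 and -0.58, both past it.

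Some members share their start region with a gene on the other strand. PMS2 starts 120 bases from AIMP2, a scaffold subunit of the tRNA synthetase complex, and the start of AIMP2 lies within the PMS2 window printed above. AIMP2 had an FPKM of 9.29, 9.28 and 5.78 in NC and of 16.2, 14.1 and 13.6 in siPSCA, and rose by 0.80 on the log2 scale (SE 0.18, adjusted p = 0.0117 from limma). NC 3 was the highest NC library for PMS2 and the lowest for AIMP2.
PMS1 starts 286 bases from ORMDL1, a regulator of sphingolipid synthesis. These genes overlap at their starts and share 103 exonic bases (1.89% of those of PMS1). If strand was not used in counting, reads in these bases cannot be assigned to either gene. The start of ORMDL1 lies within the PMS1 window printed above. ORMDL1 had an FPKM of 10.3 ± 1.10 in NC and 9.72 ± 0.613 in siPSCA (SD, n = 3 each). Its log2 fold change was -0.08 (adjusted p = 0.499 from limma). The ratio of ORMDL1 to PMS1 was 1.14, 1.24 and 0.904 in NC and 1.46, 1.41 and 1.47 in siPSCA, without overlap (exact permutation p = 0.1, the smallest possible).

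**Figure D1:**
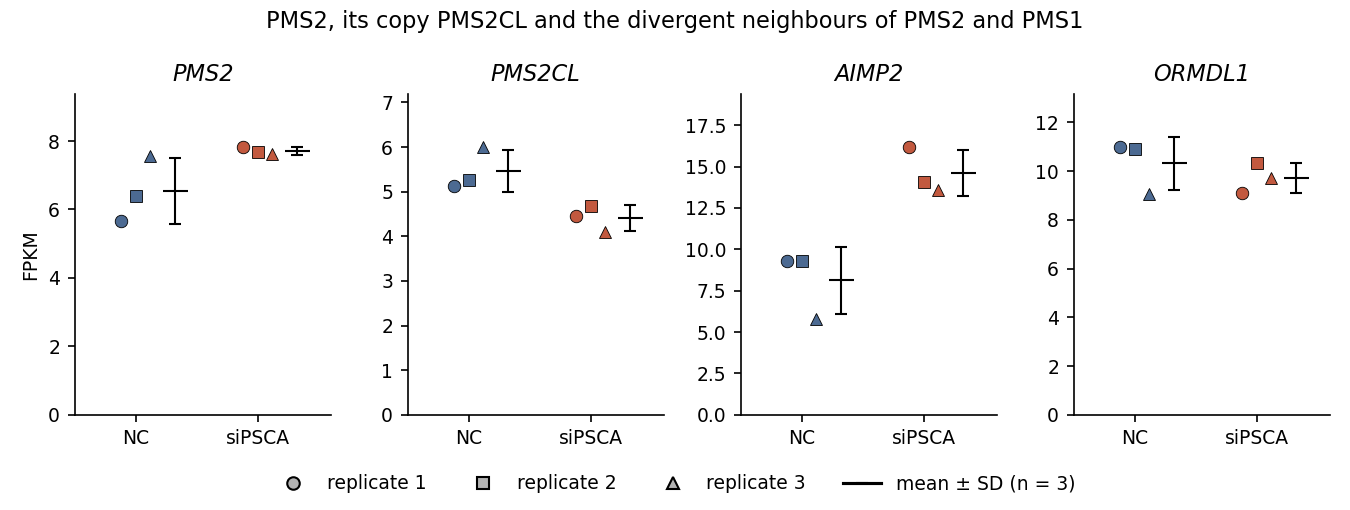
FPKM of PMS2, its copy PMS2CL, and the neighbours on the other strand AIMP2 (of PMS2) and ORMDL1 (of PMS1, which it overlaps) in each library. The mean and SD of 3 libraries are beside the points, and axes start at 0. AIMP2 and PMS2 are higher and PMS2CL is lower in every siPSCA library than in every NC library, and ORMDL1 overlaps.

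The proteins that fill and seal the gap opened by mismatch repair were taken from a list of 14 genes, of which 13 were tested. Of these, 6 rose and 1 fell (53.8% called, beside the 50.7% of all tested genes), with a median log2 fold change of 0.18. Without the GC correction, 2 subunits of DNA polymerase delta rose most. POLD1, the catalytic subunit, rose from 8.58 ± 2.24 to 15.8 ± 0.747 and POLD2 from 22.5 ± 2.02 to 39.2 ± 0.275 (FPKM, SD, n = 3 each). Their log2 fold changes were 0.84 and 0.78, with adjusted p-values of 0.00930 and 0.000945 from limma. Both genes are rich in GC. On the GC-corrected scale the log2 fold changes were 0.19 and 0.35, still past the threshold, although POLD1 was not with the replicate number as a block on that scale (adjusted p = 0.0683 from limma). POLD3, another subunit, did not pass (log2 fold change 0.08, adjusted p = 0.602 from limma).
LIG1, the ligase of replication, rose by 0.63 on the log2 scale (0.37 when GC-corrected, also past the threshold). PCNA, the sliding clamp, rose by 0.30. Its GC-corrected value of 0.42 passed and was the highest of the list on that scale. PCNA had an FPKM of 125, 124 and 134 in NC and of 157, 157 and 156 in siPSCA, the highest level in the list. RFC5, a clamp loader subunit, and RPA2, of the single-strand binding complex, rose by 0.22 and 0.20, and each lost its call when any single siPSCA library or NC 1 was left out, RPA2 also without NC 2.
RFC1, the large clamp loader subunit, fell. Its FPKM averaged 21.5 ± 1.96 in NC and 16.3 ± 0.974 in siPSCA (SD, n = 3 each; log2 fold change -0.38, adjusted p = 0.00999 from limma). The value was -0.13 and not past the threshold when GC-corrected. On the GC-corrected scale 7 of 13 partners passed, 6 higher and 1 lower (53.8% called, beside 39.6% of all tested genes). The lower one was RFC2, at -0.15 (adjusted p = 0.0493 from limma), against 0.04 without the correction.

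Of 7 factors known to work with mismatch repair proteins, 1 rose and 1 fell (28.6% called, against 50.7% of all tested genes). SETD2, the methyltransferase whose histone mark draws the MSH6 dimer to chromatin, fell from an FPKM of 12.8 ± 0.846 to 9.72 ± 0.972 (SD, n = 3 each; log2 fold change -0.37, adjusted p = 0.0142 from limma). MUTYH, a glycosylase that removes adenine opposite oxidised guanine, rose from 4.42 ± 0.555 to 6.18 ± 0.816 (SD, n = 3 each; log2 fold change 0.40, adjusted p = 0.0279 from limma). On the GC-corrected scale neither passed, with log2 fold changes of -0.12 and -0.08. Without siPSCA 1 or siPSCA 2, MUTYH did not pass. FAN1, BLM, BRIP1, MCM9 and HMGB1 did not pass, with log2 fold changes between -0.19 and 0.03. When GC-corrected, the helicase genes MCM9 and BRIP1 turned from -0.09 and -0.12 to 0.31 and 0.23 and passed (adjusted p = 0.0206 and 0.0414 from limma). On that scale 2 factors were thus higher and 0 lower (28.6% called, against 39.6% of all tested genes, 21.2% higher and 18.4% lower).

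Because transcripts of repair and replication genes vary through the cell cycle, cell cycle lists are given beside the members. Of 20 genes with transcripts highest at the start of DNA replication, 11 rose and 0 fell (55.0% called, beside 50.7% of all tested genes, median log2 fold change 0.24). The counts were the same on the GC-corrected scale, where 39.6% of all tested genes passed. Of 10 genes of mitosis, 2 rose and 3 fell (5 of 10 called, against 50.7% of all tested genes, median -0.03). On the GC-corrected scale 4 of these were higher and 3 lower (70% called, against 39.6% of all tested genes, median 0.09). As examples chosen after their values were seen, CDT1, which licenses replication origins, had a log2 fold change of 0.98 (0.29 when GC-corrected, also past the threshold), and CENPF, a kinetochore protein, of -1.09. Whether these shifts had a part in the values of the members was not tested.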

How the data were processed

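FPKM values of 58735 genes were deposited by the authors in 1 table (read numbers scaled for the length of the gene and the size of the library), covering 6 libraries (NC, n = 3; siPSCA, n = 3). The submitters' processing notes name GRCh38; the aligner, the counting program, their versions and the use of strand are not given in the sources used here. Gene positions and strands of all 58735 rows were those of GENCODE release 29, and gene lengths of the members were the union of all annotated exons.

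In each library the product of FPKM and length came in equal steps of 1 read (within 0.05 reads) for 100% of values, so reads were recovered. 

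limma 3.58.1 in R 4.3.3 (functions lmFit and eBayes, the prior variance following the mean) was run on log2(FPKM + 1) with group as the only term, for the 13796 genes whose FPKM averaged 1 or more. Fold changes on this scale understate those of low genes. All p-values are 2-sided and adjusted p-values come from limma with the method of Benjamini and Hochberg over all genes tested. PSCA lay under the minimum, and its log2 fold change comes from a fit without that minimum. Single values were also tested by exact permutation over the 20 divisions of the libraries. GC content was taken from the longest GENCODE transcript of each gene, and its trend, with that of length, was removed from each library by natural splines. Ratios, shares and permutation tests used Python 3.11.15 and scipy 1.17.1. The fit was run on simulated data with a log2 change added to 200 genes. A change of 0.5 was recovered in 41.5% of them and a change of 1.0 in 81.0%, with 4 and 11 false calls. The simulation drew independent noise without the GC trend, so these rates may not hold for the deposited data.

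The members and the gene lists were chosen with earlier results of these data known. Genes named in the text were all 6 members, listed partners and factors past the threshold, neighbours whose start lies within 1000 bases on the other strand or that overlap a member, copies of PMS2 (those under the minimum as a range), and the 3 protein-coding genes most like each member. 1 gene that this rule names is not reported here. Promoter windows come from RefSeq (GRCh38.p14), where all 6 members matched; where several were listed, the most upstream was used.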

Additional observations from a re-analysis of the deposited data

How the results depend on the processing

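The number of members called was 2, or 3 after removal of the GC and length trend (MLH3 lower, MSH6 and EXO1 higher), and 2 to 3 when single libraries were left out. It was 1 with an unadjusted p under 0.05 and an absolute log2 fold change over 0.5, and 4 with the trend removed and NC 3 left out, a combination chosen after seeing the data. In that combination 5918 of 13792 tested genes passed. It gave log2 fold changes of 0.39 (MSH6), 0.36 (EXO1), 0.31 (PMS2), 0.12 (MSH3), -0.16 (PMS1) and -0.34 (MLH3). Under the p and fold change rule, which 24.9% of all tested genes met, the other counts were lower. They were 3 replication partners, 0 associated factors, 5 S-phase and 1 G2/M genes, which follows from the higher bar. With the trend removed and without NC 3, 3 associated factors, 17 S-phase and 8 G2/M genes passed, beside the 5918 of 13792 genes. Without the FPKM minimum 1 associated factor passed, beside 5601 of 34391 genes. Single libraries left out gave 1 to 2 associated factors and 3 to 6 G2/M genes (3 without siPSCA 2). In these fits the whole table moved too, from 4627 genes called of 13796 (without siPSCA 1) to 7425 (without NC 3). PMS1 kept its log2 fold change of -0.44 but not its call under the p and fold change rule, and was -0.16 with the trend removed. With the trend removed, MSH6 was 0.33, EXO1 0.28 and MSH3 0.079, a change of direction for MSH3. ORMDL1 and MUTYH also changed direction, to 0.20 and -0.08 (0.093 and -0.049 without NC 3). MSH6 was -0.041 on TPM and -0.012 under median-of-ratios scaling. Leaving out single libraries, log2 fold changes ranged from -0.053 to 0.10 for MSH6, 0.13 to 0.31 for PMS2, 0.00 to 0.22 for EXO1, -0.20 to -0.05 for MSH3, -0.50 to -0.40 for PMS1 and -0.72 to -0.58 for MLH3. The cause of these shifts was not tested.

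Libraries of the 2 groups share only a replicate number: deviations from the group means correlated at 0.0956, 0.0133 and 0.134 for the same-numbered pairs. With the replicate number as a block, 2 members still passed, MLH3 at -0.66 (adjusted p = 0.00647 from limma) and PMS1 at -0.44 (adjusted p = 0.0181 from limma), and PMS2CL lost its call. As each replicate number occurs once in each group, the block cannot change a log2 fold change, only its p-value. With the block and the trend removed, MLH3 was -0.39, MSH6 0.33, EXO1 0.28 and PMS1 -0.16. Their adjusted p-values from limma were 0.0160, 0.03055, 0.0474 and 0.1785, in that order. MSH3 was 0.079, ORMDL1 0.20 and MUTYH -0.08, none past the threshold. The 87 to 129 reads of MSH3 limit what can be said of that gene.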

Other observations

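The MutS homologs of meiosis, MSH4 and MSH5, were detected at low levels. MSH4 had 67 to 93 reads per library and an FPKM of 1.42 ± 0.167 in NC and 1.43 ± 0.199 in siPSCA (SD, n = 3 each), a range that overlapped with that of MSH3 in both groups. MSH5 had an FPKM of 1.97 ± 0.307 in NC and 2.27 ± 0.0501 in siPSCA (SD, n = 3 each). Neither passed the test, with log2 fold changes of 0.01 and 0.14 (adjusted p = 0.963 and 0.261 from limma).

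Across the 6 libraries, the protein-coding genes whose log2(FPKM + 1) was most like that of MLH3 were ZBTB11 (Pearson r = 0.9996), PDIA3 (0.9994) and MOB1A (0.9993), and 1822 of 11076 genes had an r over 0.95 with it. For PMS1 they were GPR180 (0.9946), FBXO36 (0.9933) and GOLGA7 (0.9932), with 661 genes over 0.95, and for PMS2 NOP14 (0.9967), ALDH7A1 (0.9930) and CYLD (0.9921), with 98. For the members whose groups overlapped, the most alike genes were RIPK2 (0.9949), APP (0.9904) and C6orf203 (0.9882) for MSH6, CINP (0.9904), THYN1 (0.9860) and COA7 (0.9784) for EXO1, and METTL22 (0.9744), CRTAP (0.9672) and TIPRL (0.9650) for MSH3, with 36, 21 and 9 genes over 0.95. These correlations are descriptions over 6 libraries that share the group difference and the GC trend.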
